A study of Mus musculus with 6 samples.

Results

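Orphan and adhesion G protein-coupled receptors (GPCRs) were taken as the protein-coding genes of the deposited count table whose symbol is Gpr with a number and at most 1 letter, or begins with Adgr. They numbered 101 of 45777 genes, 74 with a Gpr symbol and 27 with an Adgr symbol. Bone marrow of wild-type C57BL/6 mice gave the neutrophils, which were purified on a Percoll gradient and kept for 24 h in 10 µM prostaglandin E2 (PGE2) or in vehicle, DMSO. There were 3 libraries a group, which the series calls biological replicates. The comparison asks which of these receptor genes PGE2 changed. A Percoll gradient enriches neutrophils without removing every other cell, so the values are those of the whole cell suspension, in which fewer cells of a type and less RNA per cell cannot be told apart.

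GPCRs cross the membrane in a bundle of helices and pass a signal from outside the cell to heterotrimeric G proteins inside it. Orphan receptors are those for which no ligand is agreed upon, although many of the Gpr symbols now have proposed ligands, among them protons, lysophospholipids, fatty acids and oxysterols. Adhesion GPCRs carry a long extracellular part that is cut from the membrane part during maturation in most of them, and bind matrix or cell surface proteins. PGE2 itself acts through GPCRs, of which EP2 and EP4 couple to Gs and raise cyclic AMP.

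The 6 libraries held 42091346 to 56238941 estimated read counts. Neutrophil markers added up to 74590 to 89850 CPM (counts brought to an equal library size with edgeR's TMM factors) in the PGE2 libraries and 83360 to 88870 CPM in the vehicle libraries, and all 11 were detected. Of the 11, 6 were lower with PGE2, Csf3r, Mmp9, Mmp8, Cxcr2, Ltf and Ly6g, by edgeR's quasi-likelihood test at an adjusted p of 0.05. S100a9 and S100a8, which made up most of the sum, did not pass, at log2 fold changes of 0.22 and 0.17. Nor did Retnlg at 0.01, Ngp at -0.95 and Camp at -0.34. Over all genes tested, 14.3% were lower and 10.1% higher. Of 10 macrophage and monocyte markers, 2 were lower, Csf1r and Vcam1, and the sum of the list, most of it Csf1r and Ccr2, was 317.5 to 424 CPM with PGE2 and 436 to 527 CPM with vehicle. Macrophage genes of the same list went the other way without passing, at log2 fold changes of 1.09 for C1qa, 1.64 for C1qb, 1.19 for C1qc and 0.92 for Mertk, from levels near or below 1 CPM in both groups. Of 9 eosinophil markers, 6 were lower, led in level by Prg2 (55.4 ± 14.3 CPM with PGE2 and 118 ± 46.2 CPM with vehicle, SD, n = 3 each), and the sum of the list was 72.8 to 119 CPM with PGE2 and 154 to 311 CPM with vehicle. Ccr3 and Il5ra of that list did not pass, at log2 fold changes of 0.35 and 0.50. Of 8 B lineage markers, 4 were higher, led in level by Cd79a (204 ± 33.95 CPM with PGE2 and 117 ± 11.5 CPM with vehicle, SD, n = 3 each). The sum of the list was 620.2 to 905 CPM with PGE2 and 409 to 558 CPM with vehicle. Pax5, Ms4a1, Ebf1 and Vpreb1 of that list did not pass, at log2 fold changes of 0.23, 0.28, -0.04 and 0.91. The sums over 10 markers of T cells and natural killer cells overlapped, at 72.2 to 189.9 CPM with PGE2 and 68.9 to 143 CPM with vehicle. Erythroid markers held 15630 to 51420 CPM with PGE2 and 4417 to 20080 CPM with vehicle, and none of the 8 passed the test. Markers of mast cells and basophils, megakaryocytes and platelets, and endothelial and stromal cells gave no call. No marker of these lists was at 0 in all 6 libraries.

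Of the 101 receptor genes, 35 had 0 counts in all 6 libraries, and another 18 had counts but fewer than 10 in at least 4 libraries, with no count above 27. The remaining 48 were tested, 14 of 27 adhesion receptors and 34 of 74 with a Gpr symbol. With PGE2, 4 were higher (Gpr35, Gpr132, Gpr171 and Gpr18) and 6 were lower (Adgrb1, Gpr27, Adgre1, Adgre4, Gpr141 and Gpr157). Adgrb1 entered the test through the vehicle libraries alone, in which it was high, so its place in this count carries no weight. The 10 that passed stand beside a background of 24.4% of all 15947 genes tested, with 10.1% higher and 14.3% lower. In 16 of the 48 the 3 PGE2 libraries lay wholly above or wholly below the 3 vehicle libraries, 8 above and 8 below, against a background of 42.3% of genes, 20.5% above and 21.8% below. All 10 that passed were among these 16, as was Adgrg6, which like Adgrb1 entered the test through the vehicle libraries alone. The median log2 fold change was -0.06 over the 48 receptor genes and 0.04 over all genes tested. Scaled by library totals alone, 7 receptor genes were higher and 4 lower, and over all genes the share of calls that were higher was 55.5%, beside 41.5% with TMM. On the deposited TPM, which are scaled for transcript length as well, 4 receptor genes were higher and 7 lower, 30.1% of all calls were higher with a pseudocount of 0.1, and the median log2 fold change of all genes shifted by -0.10 with a pseudocount of 1.

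**Figure D1:**
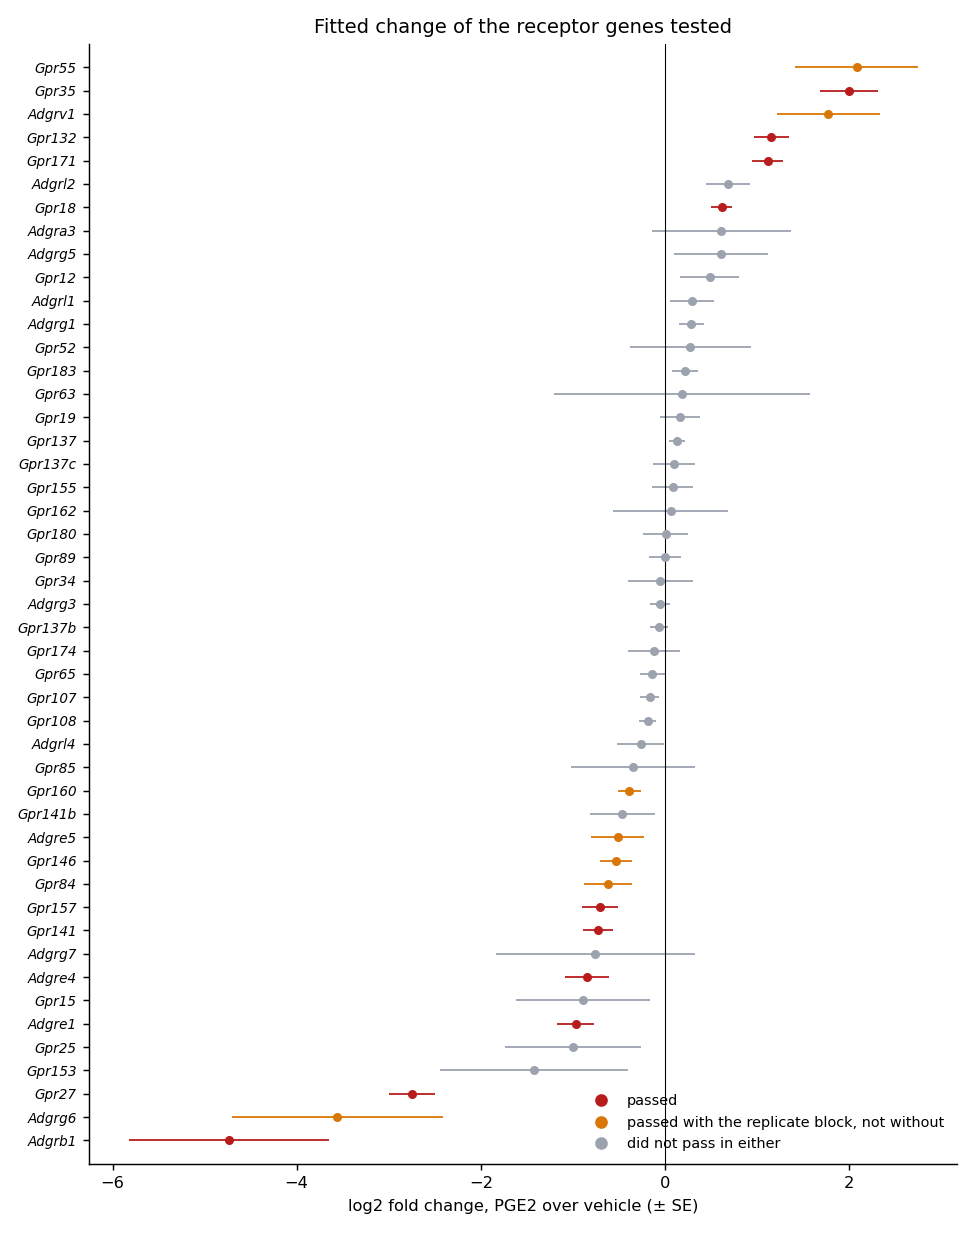
Fitted log2 fold change of the tested receptor genes but 1 that is not shown, PGE2 over vehicle, with the standard error as a bar, ordered by size. Of the genes at either side, Gpr35 at 2.0 and Gpr27 at -2.75 passed the test and are red, while Gpr55 at 2.08 is orange, since it passed with libraries of the same replicate number treated as pairs and not without.

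Libraries with the same replicate number deviated together from their group means only weakly, with correlations of 0.258, 0.174 and 0.187. A second fit took that number as a block. With the block, 6 receptor genes were higher and 11 lower, and the 17 include the 10 named above. Adgrb1 and Adgrg6, both among the 11, entered the test through the vehicle libraries alone, so their places in this count carry no weight. The background with the block was 35.5% of all genes, 16.6% higher and 18.9% lower. The 7 receptor genes that passed with the block and not without it were Gpr55 and Adgrv1, both higher, and Adgre5, Gpr84, Gpr146, Gpr160 and Adgrg6, all lower. Where library values of these 7 are given, the genes were singled out after their values were seen.

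Levels differed widely between the receptor genes. The summed level of all 101 was 599.7, 516.5 and 669 TPM in the PGE2 libraries and 730.5, 665 and 799.5 TPM in the vehicle libraries, and TPM corrects for gene length, so these levels can be set side by side. The groups overlapped in this sum. Adgre5 alone held 18.3 to 28.1% of the sum with PGE2 and 22.5 to 35.4% with vehicle. In order of mean TPM, Adgre5, Gpr141, Adgrg3, Gpr108, Adgre1 and Gpr132 led. The 6 highest receptor genes of each library, whichever they were, made up 60.9 to 63.9% of the sum with PGE2 and 68.1 to 72.2% with vehicle. At least 1 TPM on average was reached by 34 receptor genes and at least 10 TPM by 12.

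**Figure D2:**
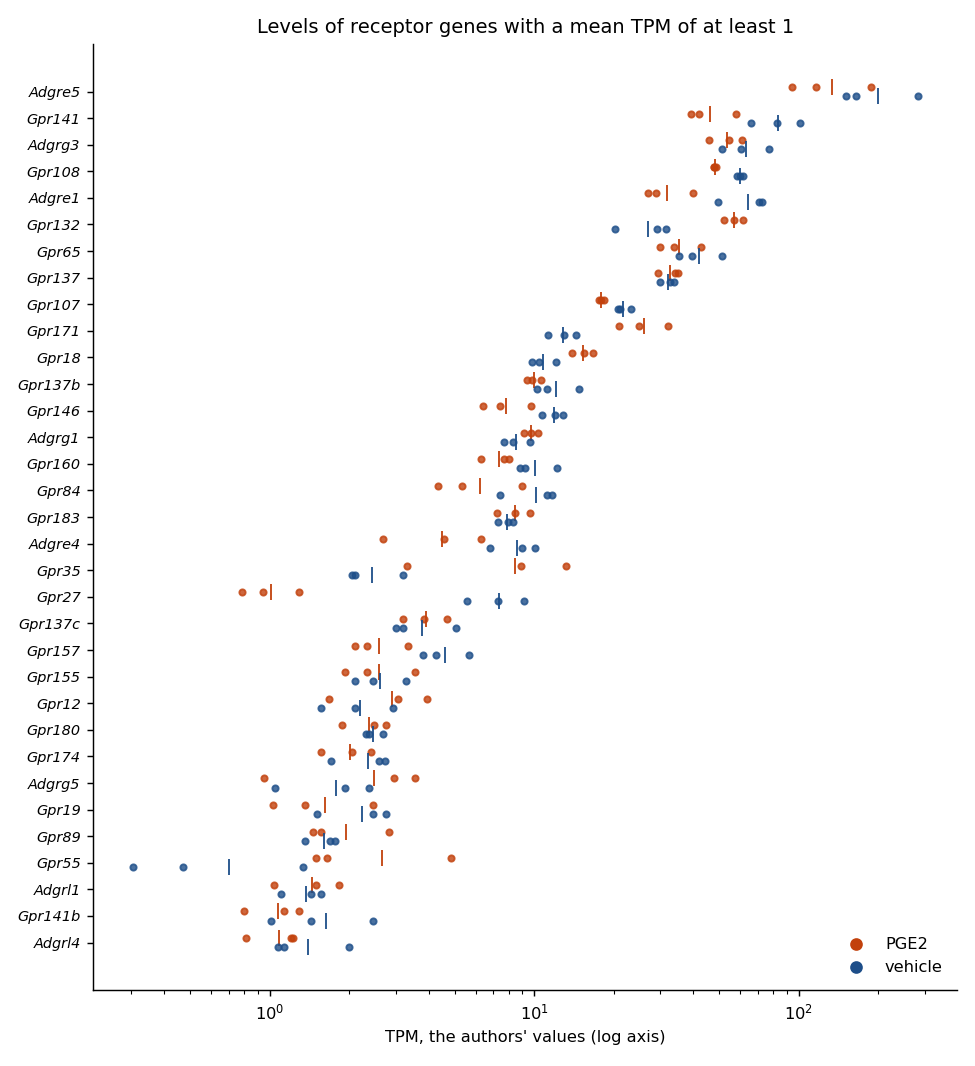
Levels of receptor genes with a mean of at least 1 TPM, all but 1 that is not shown, in the authors' TPM on a log axis, with 1 point per library and a tick at each group mean, PGE2 above vehicle. Adgre5 stands highest, Gpr132 and Gpr35 lie further right with PGE2, and Gpr27 lies further left, at 1.01 TPM with PGE2 against 7.34 TPM with vehicle.

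The EGF-TM7 adhesion receptors, which carry epidermal growth factor repeats and are found on myeloid cells, included 2 that fell of 3 tested, beside 14.3% of all genes. Adgre1 encodes F4/80, the classical surface marker of mouse macrophages, which eosinophils also carry (chromosome 17, 57358581 to 57483529, mm10). Adgre1 had 69.9, 62.9 and 50.05 CPM in PGE2 replicates 1, 2 and 3, against 84.3, 138 and 136 CPM in vehicle replicates 1, 2 and 3. Every PGE2 library lay below every vehicle library, and vehicle replicate 1 came closest. The log2 fold change was -0.97 ± 0.20 (SE, n = 3 per group), with an edgeR adjusted p of 0.0101. Between libraries of the same number the log2 ratio was -0.27, -1.13 and -1.44. The macrophage and eosinophil marker sums given above were lower with PGE2 as well, although C1qa, C1qb, C1qc, Mertk, Ccr3 and Il5ra of those lists were not, and the part of these cells in the value of Adgre1 was not tested.

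Adgre4, a receptor of the same subfamily on mouse myeloid cells (chromosome 17, 55749984 to 55853662), had 9.31, 6.44 and 12.8 CPM with PGE2, against 18.6, 14.3 and 18.3 CPM with vehicle. The groups did not overlap, although PGE2 replicate 3 came near vehicle replicate 2. Its log2 fold change was -0.84 ± 0.24 with an edgeR adjusted p of 0.0352. The p missed the threshold at 0.0833 without PGE2 replicate 1, 0.0659 without PGE2 replicate 2, 0.111 without vehicle replicate 1, 0.0926 without vehicle replicate 3, 0.0794 with scaling by totals and 0.0510 with no filter on low counts, and over all alternatives it ran from 0.00186 to 0.111. The part of eosinophils and macrophages was not tested here either.

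Adgre5 encodes CD97, which binds the complement regulator CD55 and is carried by most leukocytes (chromosome 8, 83723245 to 83741311). The gene had 209.7, 197 and 338.5 CPM in the PGE2 libraries, against 274, 278 and 511 CPM in the vehicle libraries. Replicate 3 was the highest library in both groups, so the groups overlapped, with PGE2 replicate 3 above vehicle replicates 1 and 2. Without the block the log2 fold change of -0.51 ± 0.29 did not pass (edgeR adjusted p = 0.242). Within pairs the log2 ratios were -0.38, -0.50 and -0.59, and with the block the log2 fold change was -0.49 ± 0.07, with an edgeR adjusted p of 0.00145. No other alternative called it.

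**Figure D3:**
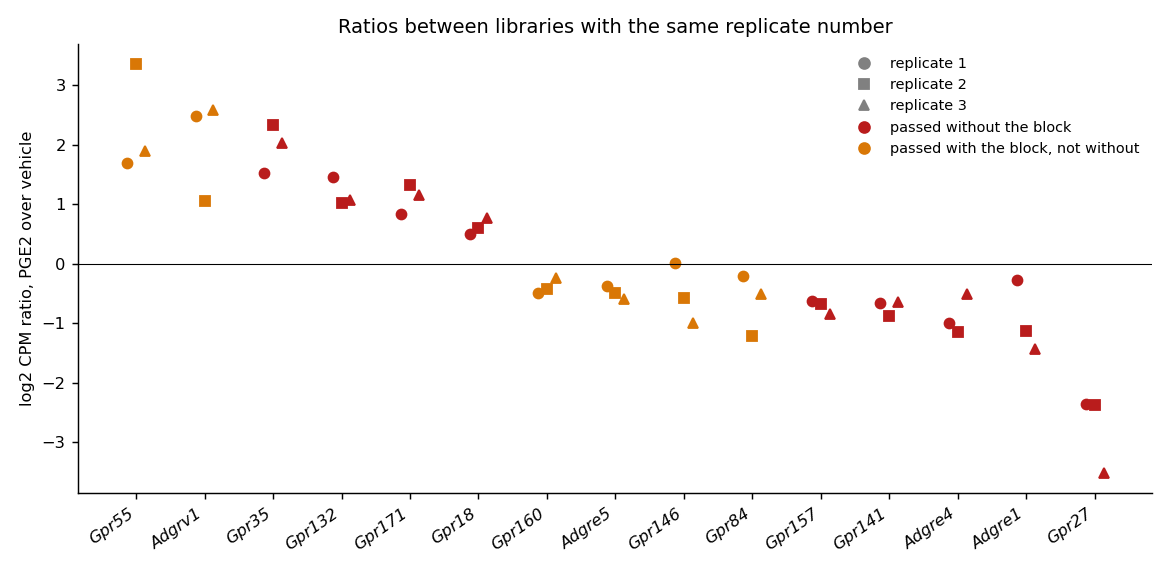
Log2 ratio of CPM, PGE2 over vehicle, between libraries with the same replicate number, for the 15 receptor genes that passed with the block and had counts in all 6 libraries. The 3 ratios of Adgre5 lie between -0.59 and -0.38, while those of Gpr146 run from 0.00 to -0.99.

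In the fit of all 6 libraries without the block, none of the 5 tested ADGRG receptors passed with edgeR, beside 24.4% of all genes. Adgrg3, also called GPR97 and known from granulocytes, was the third most abundant receptor gene by TPM (chromosome 8, 95017113 to 95045250). It had 99.6, 86.8 and 79.96 CPM with PGE2, against 103, 85.2 and 88.4 CPM with vehicle. The groups overlapped throughout, and the log2 fold change was -0.05 ± 0.11 (edgeR adjusted p = 0.781), with a sign that changed between alternatives. Adgrg1, which encodes GPR56, a receptor for collagen III and transglutaminase that natural killer cells carry, had 20.1, 22.6 and 22.03 CPM with PGE2 against 14.6, 18.2 and 20.2 CPM with vehicle (log2 fold change 0.29 ± 0.14, edgeR adjusted p = 0.174). Adgrg5 varied widely within groups, at 1.66, 7.21 and 5.04 CPM with PGE2 and 1.68, 3.46 and 3.96 CPM with vehicle.

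Several adhesion receptors were measured near the lower limit. Adgrb1 encodes BAI1, a receptor that recognises phosphatidylserine on dying cells (chromosome 15, 74516196 to 74589465). It had 2, 0 and 0 counts in the PGE2 libraries, against 17, 15 and 23 counts in the vehicle libraries. The ratio of PGE2 to vehicle was 0.0306, with an exact 95% interval of 0.00362 to 0.116 that covers counting error only. The edgeR adjusted p was 0.0151, and without any 1 of the vehicle libraries the gene missed the filter on low counts. Adgrg6, a receptor of Schwann cell myelination (chromosome 10, 14402583 to 14545723), had 0, 0 and 6 counts with PGE2 against 25, 13 and 23 counts with vehicle. Its groups did not overlap (edgeR adjusted p = 0.0555 without the block and 0.0400 with it). Its span overlaps Gm10335 on the other strand, which was more abundant, at 11.2 CPM with PGE2 and 8.34 CPM with vehicle. Adgrg6 was also called without PGE2 replicate 3, the one PGE2 library with counts of it (edgeR adjusted p = 0.0137). That fit left Adgrg6 at 0 counts with PGE2. DESeq2's Wald test called Adgrg6 too (adjusted p = 0.0169). Both Adgrb1 and Adgrg6 entered the test through the vehicle libraries alone, in which they were high, so none of their calls carries weight. Adgrv1, a very large receptor known from hearing, had 62, 95 and 91 counts with PGE2 against 10, 35 and 13 counts with vehicle, with groups that did not overlap (edgeR adjusted p = 0.0518 without the block and 0.0116 with it). Of the 12 alternatives that tested Adgrv1, 5 called it, the block among them. Of the latrophilins, Adgrl2 was at 2.14, 2.73 and 2.14 CPM with PGE2 and 1.42, 1.60 and 1.33 CPM with vehicle. Its groups did not overlap, and its edgeR adjusted p of 0.0706 was 0.0455 with scaling by totals.

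The proton-sensing receptors detect extracellular acid through histidines on their outer face. Gpr132, known in addition as a receptor for oxidised fatty acids and lysophospholipids, was the one that rose (chromosome 12, 112850873 to 112868416). It had 74.8, 95.1 and 87.6 CPM with PGE2, against 27.2, 46.7 and 41.5 CPM with vehicle. The lowest PGE2 library was well above the highest vehicle library, and by TPM Gpr132 was at 56.8 ± 4.73 with PGE2 and 26.9 ± 5.99 with vehicle (SD, n = 3 each). The log2 fold change was 1.16 ± 0.19, a 2.23-fold rise, with an edgeR adjusted p of 0.0039. It overlaps Gm30461 on the other strand, which was at 1.36 CPM with PGE2 and 0.678 CPM with vehicle. Gpr65, which raises cyclic AMP through Gs when acid is sensed, had 53.6, 44.0 and 42.2 CPM with PGE2 against 58.4, 51.3 and 44.1 CPM with vehicle. Its log2 fold change of -0.14 ± 0.13 did not pass (edgeR adjusted p = 0.509). Gpr4, the receptor of this set known from endothelium, had counts in 3 libraries, 27 in PGE2 replicate 1 and 7 and 6 in vehicle replicates 1 and 2, and was not tested.

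Receptors for lipids and metabolites gave 2 rises and no fall among 7 tested of 9, beside 10.1% higher and 14.3% lower of all genes. With the block 3 rose and 1 fell, beside 16.6% and 18.9%. Gpr35, for which kynurenic acid and other metabolites have been proposed as ligands, showed the largest rise among receptor genes that passed without the block (chromosome 1, 92948052 to 92986391). It had 13.95, 25.2 and 31.5 CPM with PGE2, against 4.87, 5.01 and 7.75 CPM with vehicle. All 3 PGE2 libraries were above all 3 vehicle libraries, and PGE2 replicate 1 was the lowest of its group. The log2 fold change was 2.0 ± 0.31, a 4.0-fold rise, with an edgeR adjusted p of 0.00301. On log2(TPM + 1) it was 1.31, with TPM values of 3.31, 8.93 and 13.2 with PGE2 against 2.1, 2.04 and 3.19 with vehicle. By TPM the groups were thus separated by a narrow margin.

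Gpr18, a receptor for which N-arachidonoyl glycine has been proposed as a ligand, rose by 0.62 ± 0.12 on the log2 scale (chromosome 14, 121911434 to 121915888). It had 12.9, 13.5 and 13.9 CPM with PGE2, against 9.16, 8.97 and 8.12 CPM with vehicle. The spread within each group was small beside the difference, and the edgeR adjusted p was 0.00646. Gpr183, the oxysterol receptor EBI2 that positions B cells and other leukocytes in lymphoid tissue, lies 36.4 kb away on the same strand. It had 12.5, 17.1 and 16.6 CPM with PGE2 against 13.02, 14.2 and 12.5 CPM with vehicle, and did not pass (log2 fold change 0.22 ± 0.15, edgeR adjusted p = 0.323). Both genes lie within the span of Ubac2 on the other strand. Ubac2 had 29.8 CPM with PGE2 and 26.8 CPM with vehicle on average and did not pass (edgeR adjusted p = 0.370).

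Gpr55, a receptor for lysophosphatidylinositol, had 3.46, 5.09 and 11.6 CPM with PGE2, against 1.07, 0.498 and 3.13 CPM with vehicle. The groups did not overlap, but replicate 3 was the highest library in both. Its log2 fold change of 2.08 ± 0.67 missed the threshold (edgeR adjusted p = 0.0543) and was 2.21 ± 0.30 with the block (edgeR adjusted p = 0.000933). Without vehicle replicate 3 it was 3.09, with an edgeR adjusted p of 0.0148, and without PGE2 replicate 3 it was 1.44, with an edgeR adjusted p of 0.177. Of 14 alternatives, 6 called Gpr55. Gpr84, a receptor for medium-chain fatty acids on phagocytes, had 8.24, 4.76 and 4.92 CPM with PGE2 against 9.51, 11.1 and 6.98 CPM with vehicle. PGE2 replicate 1 overlapped the vehicle range, and the edgeR adjusted p was 0.123 without the block, 0.0367 with it and 0.0240 without PGE2 replicate 1. The receptors for lysophosphatidylserine, Gpr34 and Gpr174, were at 2.27 ± 0.719 and 6.56 ± 1.95 CPM with PGE2, and at 2.34 ± 0.939 and 7.13 ± 2.07 CPM with vehicle (SD, n = 3 each). Neither passed with edgeR (adjusted p = 0.940 and 0.803), and Gpr34 lies within the span of Cask on the other strand, which fell (edgeR adjusted p = 0.00479).

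Of 5 tested receptors in the group of P2RY-like and leukocyte orphans, 1 rose and 1 fell, beside 10.1% and 14.3% of all genes. With the block 1 rose and 2 fell, beside 16.6% and 18.9%. Gpr171, a receptor of lymphocytes and of hypothalamic neurons for which the peptide BigLEN has been proposed as a ligand, rose by 1.12 ± 0.17 on the log2 scale, which is 2.17-fold (chromosome 3, 59096448 to 59101821). It had 27.4, 37.95 and 41.4 CPM with PGE2, against 15.3, 15.2 and 18.6 CPM with vehicle. The groups were far apart, and the edgeR adjusted p was 0.00252. Gpr171 lies within the span of Med12l on the other strand, which was at 2.34 CPM with PGE2 and 2.47 CPM with vehicle. Gpr171 and Gpr18 are both known from lymphocytes. The B lineage sum above was higher with PGE2, although Pax5, Ms4a1, Ebf1 and Vpreb1 of that list did not pass. The sum of the T and natural killer cell list overlapped. The part of these cells in the values was not tested.

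Gpr141 was the second most abundant receptor gene by TPM and fell (chromosome 13, 19749680 to 19824336). Its ligand is not known. It had 119, 94.2 and 84.98 CPM with PGE2, against 188, 173 and 133 CPM with vehicle. The groups did not overlap, and within both groups replicate 1 was highest and replicate 3 lowest. The log2 fold change was -0.73 ± 0.16 with an edgeR adjusted p of 0.0135, which was 0.0504 without PGE2 replicate 2 and lay between 0.000162 and 0.0504 over the alternatives. Its neighbour Gpr141b, 16.7 kb away on the same strand and far less abundant, had 2.12, 2.16 and 1.30 CPM with PGE2 against 3.64, 2.39 and 1.64 CPM with vehicle. It did not pass (log2 fold change -0.46 ± 0.35, edgeR adjusted p = 0.387). Gpr141b is related in sequence to Gpr141, and the sources used here do not say how reads were divided between related genes. Gpr160 had 9.33, 8.43 and 9.71 CPM with PGE2 against 13.1, 11.3 and 11.4 CPM with vehicle, without overlap (edgeR adjusted p = 0.0595 without the block and 0.0291 with it). DESeq2's Wald test called Gpr160 as well.

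Gpr27 belongs to the SREB receptors, a small family of orphans that is strongly conserved among vertebrates and best known from brain (chromosome 6, 99692367 to 99695066). It showed the largest fall of any receptor gene with a mean of at least 30 counts. Gpr27 had 2.06, 1.76 and 1.25 CPM with PGE2, against 10.5, 9.09 and 14.3 CPM with vehicle. The groups were far apart. By the fitted value the gene was 6.71-fold lower with PGE2, with a log2 fold change of -2.75 ± 0.25 and an edgeR adjusted p of 0.000421. The gene overlaps Eif4e3 on the other strand. Eif4e3 also fell, to 14.2 CPM with PGE2 against 24.03 CPM with vehicle (log2 fold change -0.76, edgeR adjusted p = 0.0149), and without a stated use of strand the reads of an overlap cannot be assigned. Of the other SREB genes, Gpr85 held 7 to 19 counts with PGE2 and 9 to 16 counts with vehicle, and Gpr173 had 0 counts in every library.

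**Figure D4:**
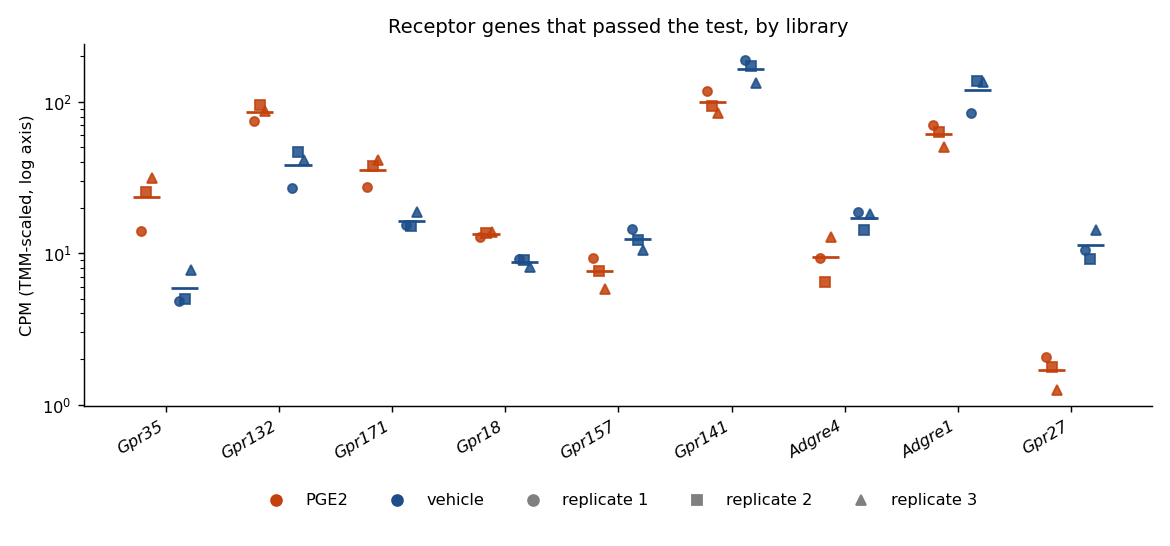
CPM in each library, on a log axis, of 9 of the 10 receptor genes that passed the edgeR test, with PGE2 left of vehicle and a bar at each mean. Adgrb1 is left out since a log axis cannot show its 0 counts. In each of the 9 genes the 3 PGE2 libraries lie on one side of the 3 vehicle libraries, by a wide margin in Gpr27 and a narrow one in Gpr141, Adgre4 and Gpr157.

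Among the other class A orphans, Gpr157 was the one that fell of 8 tested, beside 14.3% of all genes. It had 9.31, 7.63 and 5.85 CPM with PGE2, against 14.4, 12.2 and 10.5 CPM with vehicle (chromosome 4, 150087503 to 150105927). The groups did not overlap, and the log2 fold change was -0.71 ± 0.20 with an edgeR adjusted p of 0.0343. It missed the threshold at 0.0847 and 0.0938 without PGE2 replicates 2 and 3, 0.117 and 0.0857 without vehicle replicates 1 and 2, and 0.0573 with scaling by totals (0.00175 to 0.117 over the alternatives). Gpr146, known for an effect on plasma cholesterol through the liver, had 23.3, 21.1 and 17.4 CPM with PGE2 against 23.3, 31.5 and 34.6 CPM with vehicle. In replicate 1 the libraries were level, and in the other two PGE2 was lower. Gpr146 was at a log2 fold change of -0.53 ± 0.17, with an edgeR adjusted p of 0.0546, and of 0.0443 with the block. Of 14 alternatives, 7 called it, among them the fits without PGE2 replicate 1 and without vehicle replicate 1. Gpr12, which signals to Gs without an added ligand, was at 4.01 ± 1.39 CPM with PGE2 and 2.86 ± 0.874 CPM with vehicle (SD, n = 3 each), and did not pass (edgeR adjusted p = 0.319). Gpr3 and Gpr6, its close relatives, had 0 counts in every library.

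Membrane proteins that bear a Gpr symbol but are not classed with the GPCR families, several of them in the Golgi or in lysosomes, were all detected. None of these 8 passed, with or without the block, beside 35.5% of all genes with it and 24.4% without it. Gpr108, a Golgi protein, had 62.03, 71.7 and 59.8 CPM with PGE2 against 70.4, 75.1 and 75.0 CPM with vehicle, a log2 fold change of -0.19 ± 0.09 (edgeR adjusted p = 0.189). On TPM it was called lower by limma, with an adjusted p of 0.0422 on log2(TPM + 1) and 0.0434 on log2(TPM + 0.1). Gpr137, a lysosomal protein, had 39.8, 38.5 and 37.4 CPM with PGE2 against 34.4, 34.7 and 36.6 CPM with vehicle, without overlap but within a narrow range, and did not pass (log2 fold change 0.13 ± 0.08, edgeR adjusted p = 0.290). Gpr107, Gpr137b, Gpr137c, Gpr155, Gpr180 and Gpr89 had log2 fold changes between -0.17 and 0.10.

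Other receptor genes were silent or nearly so. The 35 with 0 counts included 7 of 13 receptors of the ADGRA, ADGRB, ADGRD, ADGRF and ADGRV subfamilies and 17 of 34 other class A orphans. Gpr161, Adgrl3 and Gpr21 had 0 counts in the 3 PGE2 libraries and were not tested. In the vehicle libraries Gpr161 had 7, 8 and 0 counts, Adgrl3 had 3, 12 and 0 counts and Gpr21 had 5, 2 and 11 counts. Gpr161 and Adgrl3 were thus at 0 in vehicle replicate 3 as well, and a single library held most counts of Adgrl3 and Gpr21, so no limit on a fold is given. Gpr161 overlaps Tiprl and Adgrl3 overlaps Gm46946, each on the other strand. Gpr21 overlaps Rabgap1 on the same strand, which was at 59.5 CPM with PGE2 and 63.0 CPM with vehicle.

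Promoter sequences were looked at for receptor genes that passed the test. RefSeq windows on GRCm38.p6 from 250 bases before to 50 bases after a transcript start matched 72 of the 101 receptor genes by gene ID, 38 of the 48 tested and 6 of the 10 that passed. Both strands were searched for the core of the cyclic AMP response element, TGACG, the AP-1 site TGANTCA and the interferon-stimulated response element (TTTC, 2 bases of any kind, TTTC). Matches to the core include those within the full element. Over all 32851 windows of this length in the table, 20.8% held the core, 7.81% the AP-1 site, 3.44% the interferon element and 1.79% the full element TGACGTCA. Of 92 windows of receptor genes, 26 held the core, 8 the AP-1 site, 6 the interferon element and 1 the full element. The windows of 3 genes that rose are shown 5′ to 3′, with matches in capitals, because each holds 1 match.
Gpr132, chr12:112860867-112861166, minus strand: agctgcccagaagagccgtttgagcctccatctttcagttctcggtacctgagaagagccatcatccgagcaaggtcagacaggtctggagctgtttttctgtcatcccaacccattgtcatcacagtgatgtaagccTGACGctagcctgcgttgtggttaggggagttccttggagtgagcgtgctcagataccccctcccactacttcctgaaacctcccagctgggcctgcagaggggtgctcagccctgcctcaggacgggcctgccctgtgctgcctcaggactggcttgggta
Gpr18, chr14:121915839-121916138, minus strand: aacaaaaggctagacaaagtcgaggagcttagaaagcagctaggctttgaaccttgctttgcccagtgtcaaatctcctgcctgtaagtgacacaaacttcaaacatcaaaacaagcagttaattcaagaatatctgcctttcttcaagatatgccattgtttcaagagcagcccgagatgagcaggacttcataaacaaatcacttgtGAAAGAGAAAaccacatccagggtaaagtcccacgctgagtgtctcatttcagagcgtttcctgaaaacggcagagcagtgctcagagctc
Gpr35, chr1:92978653-92978952, plus strand: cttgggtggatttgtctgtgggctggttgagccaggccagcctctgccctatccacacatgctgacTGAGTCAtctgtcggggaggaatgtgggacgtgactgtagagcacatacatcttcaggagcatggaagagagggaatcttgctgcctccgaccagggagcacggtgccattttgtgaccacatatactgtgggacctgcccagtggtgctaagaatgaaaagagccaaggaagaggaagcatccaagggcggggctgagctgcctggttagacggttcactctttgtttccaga
The Gpr132 window holds TGACG, with its first base 112 bases before the RefSeq start, and that start lies 7500 bases inside the gene span of the deposited files. The Gpr18 window holds the interferon element on the reverse strand, 41 bases before the start. Gpr35 has 2 windows, of which the one shown holds an AP-1 match 184 bases before its start, which lies 30851 bases inside the gene span of the files, and the other holds none of the motifs. The windows of Gpr141, Adgre4 and Gpr157, which fell, held none of the motifs. Gpr171, which rose, and Gpr27, Adgre1 and Adgrb1, which fell, had no matched window. The matches in the 3 genes that rose are each to a different motif. Whether a motif goes with the direction of change was not tested. A match is a run of letters and not a measured binding site.

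Genes that carry the signal of these receptors were counted from lists of G protein subunits, GPCR kinases and arrestins. Of 43 such genes, 30 were tested, and with PGE2 1 was higher and 9 were lower, against the background of 10.1% and 14.3%. Receptor kinases phosphorylate active GPCRs and arrestins then bind and uncouple them. Of 8 tested kinase and arrestin genes, 5 fell, beside 14.3% of all genes, and 6 with the block, beside 18.9%. Arrb1, which encodes beta-arrestin 1, had 219, 240.4 and 202 CPM with PGE2, against 382, 395 and 446 CPM with vehicle. Grk6 had 112.5, 106.5 and 119.9 CPM with PGE2, against 174, 188 and 206 CPM with vehicle. Arrb2 was at 582 ± 28.4 CPM with PGE2 and 883 ± 70.4 CPM with vehicle, and Grk2 at 849 ± 15.3 CPM with PGE2 and 1224 ± 119 CPM with vehicle (SD, n = 3 each). None of these 4 genes, which were picked for their small p, had groups that overlapped, nor had Grk5 and Sag. Groups did not overlap in 42.3% of all genes tested, with PGE2 below vehicle in 21.8%. Log2 fold changes were -0.89 ± 0.10 for Arrb1, -0.74 ± 0.09 for Grk6, -0.60 ± 0.09 for Arrb2 and -0.53 ± 0.10 for Grk2, with edgeR adjusted p from 0.000774 to 0.0054. Grk5 was also lower, at -1.17 ± 0.28 (edgeR adjusted p = 0.0191), and its p was 0.0561 and 0.0585 without PGE2 replicates 1 and 2. Sag, an arrestin best known from the retina, missed the threshold (edgeR adjusted p = 0.0541) and fell with the block. Grk3 was at 19.7 CPM with PGE2 and 19.2 CPM with vehicle and did not pass (edgeR adjusted p = 0.921).

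**Figure D5:**
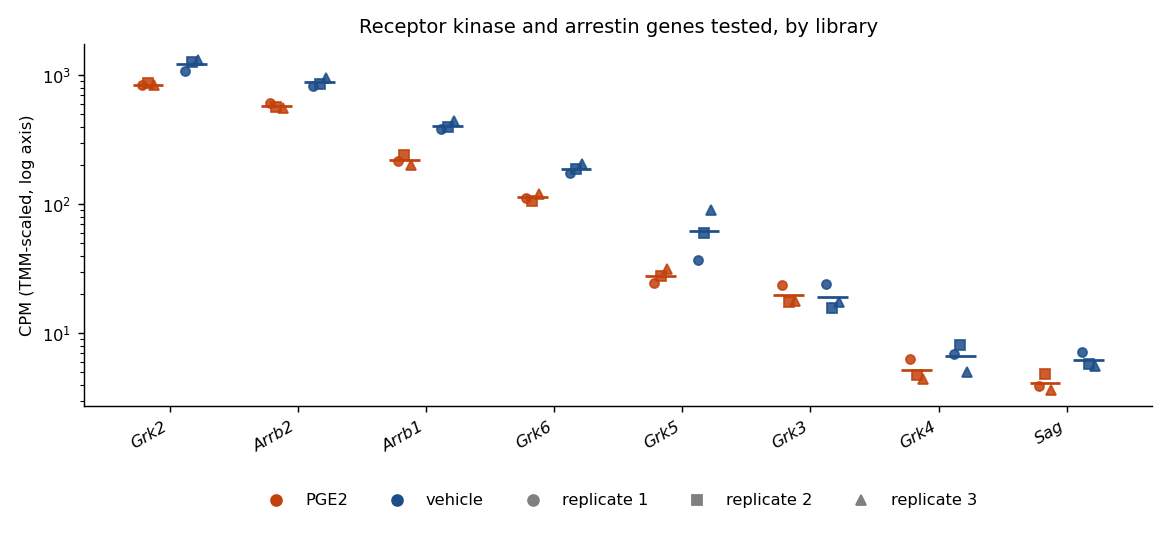
CPM in each library, on a log axis, of the 8 tested genes of receptor kinases and arrestins, with PGE2 left of vehicle and a bar at each mean. Grk2, Arrb2, Arrb1, Grk6 and Grk5 are lower with PGE2 in all 3 libraries, while the groups of Grk3 and Grk4 overlap.

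Of 10 tested alpha subunit genes, 3 fell and none rose, beside 14.3% and 10.1% of all genes, and with the block 5 fell, beside 18.9%. Gnai2, the main Gi subunit of leukocytes, had 1018, 928.5 and 905 CPM with PGE2, against 1425, 1625 and 1555 CPM with vehicle, and a log2 fold change of -0.69 ± 0.09 (edgeR adjusted p = 0.00153). Gna15 and Gna12, of the Gq and G12 classes, were at -0.77 ± 0.12 and -0.62 ± 0.13 (edgeR adjusted p = 0.00319 and 0.0108). Gnas, which encodes Gs, was at 232 ± 18.1 CPM with PGE2 and 270.0 ± 15.0 CPM with vehicle (SD, n = 3 each), and its log2 fold change was -0.22 ± 0.09 (edgeR adjusted p = 0.112 without the block and 0.0348 with it). Of 12 tested beta and gamma subunit genes, Gng10 rose by 0.38 ± 0.10 and Gng2 fell by 0.32 on the log2 scale (edgeR adjusted p = 0.0300 and 0.0442). Gng10 lost its call without PGE2 replicates 1 and 3 and vehicle replicates 1 and 2, at 0.0668 to 0.112, and on TPM, and Gng2 lost its call without PGE2 replicates 2 and 3 and any vehicle replicate, at 0.0859 to 0.142, and with scaling by totals, at 0.148. With the block, 1 gene was higher and 14 lower over all 30, beside 16.6% and 18.9% of all genes. Of 9 tested orphan and adhesion receptor genes whose symbols fall outside the Gpr and Adgr pattern, 1 fell, beside 14.3% of all genes, the adhesion receptor gene Celsr3, at 33.2 ± 5.65 CPM with PGE2 and 53.8 ± 10.8 CPM with vehicle (SD, n = 3 each). Its log2 fold change was -0.70 ± 0.17 with an edgeR adjusted p of 0.0217, and of 0.0696, 0.0744, 0.0709 and 0.0680 without PGE2 replicates 2 and 3 and vehicle replicates 1 and 2.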

How the data were processed

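RNA was measured in 6 libraries, 3 per group, grouped and numbered by the sample titles. Per the labels' protocols, the library kit is an Illumina TruSeq mRNA one, called standard in 1 sentence and stranded in another. The submitters' processing notes name mm10, RSEM, STAR, Bowtie2, DESeq2 and StringTie 2.1.3b without their roles. Use of strand in the counting is not given in these sources. The deposited table holds estimated counts as whole numbers. It is called normalized, but its totals differ between libraries (42091346 to 56238941), and it was used as unnormalised. The authors' TPM, per the file headers, gave levels. FPKM and coverage signal, also deposited by the authors, were not used for results, nor were 18 columns of 6 other libraries. Gene coordinates in the files equalled RefSeq GRCm38.p6 for 96.4% of matched genes.

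Genes with at least 10 counts in at least 3 libraries were tested, 15947 of 45777, with edgeR 4.0.16's quasi-likelihood test (R 4.3.3, TMM, two-sided, Benjamini-Hochberg over all tested genes, called at 0.05). The biological coefficient of variation was 22.4%. On counts simulated for the PGE2 and vehicle libraries with 200 changed genes among 15695 tested, it found 8.96% of 1.5-fold, 65.7% of 2-fold and 86.4% of 4-fold changes, and 6.14% of its calls were false. The changed genes left out genes of low counts and were a far smaller share than the 24.4% called in the data. These rates may therefore not hold for the data. SE is the log2 fold change over the square root of the F statistic. Deviations from group means correlated at 0.258, 0.174 and 0.187 between libraries of the same number, which is all that supports the pairing beside the numbers in the titles. The main test left it out, and a replicate block was an alternative. Others were size factors and the Wald test of DESeq2 1.42.0, leaving out each library, library totals, no filter, a filter of 50 counts, and limma 3.58.1 on log2(TPM + 1) and log2(TPM + 0.1) for genes with at least 1 TPM in at least 3 libraries. Named genes were all that passed, the 6 most abundant, the proton-sensing and SREB sets, those called only by an alternative and up to 4 of smallest p per transducer list; others were added after their values were seen. The values of 1 receptor gene are not reported here. The receptor genes, lists and alternatives were chosen with earlier results of these data known. Each p-value sets a group difference against the spread between these libraries within groups. With the block, that spread is what remains after the replicate number is fitted.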

Additional observations from a re-analysis of the deposited data

How the results depend on the processing

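Of the 10 receptor genes that passed, 6 (Gpr27, Gpr35, Gpr132, Gpr171, Gpr18 and Adgre1) passed in all 14 alternatives. Receptor genes called lower numbered 6, and 11 with the replicate block, 9 with DESeq2's Wald test and 3 to 7 with 1 library left out (3 without PGE2 replicate 2, which ended the calls of Adgre4, Gpr157 and Gpr141). The counts of 6, 11 and 9, and those without a PGE2 library, include Adgrb1. Adgrg6 is in the counts of 11 and 9 and in that without PGE2 replicate 3. Both genes entered through the vehicle libraries alone and carry no weight in these counts. Those called higher numbered 4, and 7 with library totals alone and 4 to 5 with 1 library left out. Adgrb1 was not tested without a vehicle library, with the filter of 50 counts or on TPM, because it then missed the filter, and its fitted log2 fold change was -4.74, and -7.32 without PGE2 replicate 1, which held both of its PGE2 counts. Over all genes, 1618 were called higher, and 2648 with the block, 967 on log2(TPM + 1), 953 on log2(TPM + 0.1) and 1005 to 1541 with 1 library left out (1063 without PGE2 replicate 2 and 1005 without vehicle replicate 2), while 2278 were called lower, 3009 with the block and 1627 to 2262 with 1 library left out. The block, which took the replicate number as pairing, added calls and ended none among the receptor genes. Transducer genes called lower were 9, and 14 with the block. Transducer genes called higher were 1, and 2 with library totals alone and with DESeq2's Wald test, 0 on both TPM scales and 0 to 1 with 1 library left out. The median log2 fold change of the receptor genes was -0.06, and 0.0314 with library totals alone, -0.20 on log2(TPM + 1), -0.23 on log2(TPM + 0.1) and -0.104 to -0.00908 with 1 library left out. Adgrg3, which did not pass, was at -0.05 and changed sign to 0.0269 without PGE2 replicate 3 and 0.0363 with library totals alone, and ran from -0.135 to 0.0417 (without vehicle replicate 1) with 1 library left out. The causes were not tested. At this depth 53 of 101 receptor genes held too few counts to test.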
